A study of Mus musculus with 4 samples.

Results

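The sphingolipid synthesis genes considered here are 10 genes, Sptlc1, Sptlc2, Sptssb, Cers2, Degs1, Degs2, Ugcg, Sgms1, Asah1 and Sphk1, of 17016 named genes with a probe on the array. They were chosen by symbol, through the transcript accession that each probe carries, and all 15 of their probes are described. The choice was made with the DAPT response of these data known, so the changes of these 10 genes are a description and carry no test. The RNA came from spheres, three-dimensional cultures grown from basal cells that had been sorted by FACS from the prostates of adult FVB mice. One group was kept in 5 µM DAPT and the other in DMSO, the vehicle, both with fresh medium every 24 h, and each group had 2 arrays. DAPT inhibits γ-secretase, the protease that frees the active part of Notch receptors, and the comparison asks what Notch signalling does in basal cells. All spheres are outgrowths of sorted cells in culture, so neither group stands for the intact gland. Each array carried sphere RNA labelled in red together with a commercial pooled mouse RNA, the common reference, labelled in green, so every value below is a log2 ratio of sphere over reference unless another scale is named.

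Sphingolipid synthesis begins in the endoplasmic reticulum, where serine palmitoyltransferase joins serine to a fatty acyl-CoA. Its catalytic core is a pair of large subunits, encoded by Sptlc1 and Sptlc2 or Sptlc3, and a small subunit, encoded by Sptssa or Sptssb, raises its activity and influences which acyl-CoA it takes. Ceramide synthases such as that of Cers2 then add a fatty acid, and the desaturase of Degs1 completes ceramide, while that of Degs2 can also add a hydroxyl group and so make phytoceramide, a lipid of skin, gut and kidney epithelia. Ceramide is turned into glucosylceramide by the enzyme of Ugcg and into sphingomyelin by that of Sgms1, or it is cut to sphingosine by acid ceramidase, the product of Asah1, and phosphorylated by the kinase of Sphk1 to the signalling lipid sphingosine 1-phosphate.

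Of the 10 genes, Sptssb and Degs2 differed by far the most between the groups. Sptssb was high in vehicle spheres and at background in DAPT spheres, whereas Degs2 was higher in DAPT spheres. On the brightest probe of each, the other 8 genes differed by between -0.41 and 0.39 on the log2 scale. The dimmer probe of Sphk1 lay outside this range, at -0.58. To show the promoter regions of these 2 genes, the 250 bases before a RefSeq start site are printed 5′ to 3′ (GRCm38.p6, chr12:108702307-108702556 for Degs2 and chr3:69859895-69860144 for Sptssb, both on the minus strand), with the one member window that holds the longer motif, from Sphk1 (chr11:116531587-116531836, plus strand), for contrast. Capitals mark TGGGAA, the core letters of sites for RBPJ, the DNA-binding partner of Notch.
Degs2: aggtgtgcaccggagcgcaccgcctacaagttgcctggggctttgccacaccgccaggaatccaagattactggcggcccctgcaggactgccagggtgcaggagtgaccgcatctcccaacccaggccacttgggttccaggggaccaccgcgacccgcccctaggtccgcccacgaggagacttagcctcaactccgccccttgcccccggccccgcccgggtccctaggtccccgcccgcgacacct
Sptssb: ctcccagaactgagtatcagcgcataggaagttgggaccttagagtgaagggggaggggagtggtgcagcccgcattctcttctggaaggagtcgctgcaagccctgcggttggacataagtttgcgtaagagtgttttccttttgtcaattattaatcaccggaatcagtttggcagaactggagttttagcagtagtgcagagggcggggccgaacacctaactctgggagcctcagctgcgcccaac
Sphk1: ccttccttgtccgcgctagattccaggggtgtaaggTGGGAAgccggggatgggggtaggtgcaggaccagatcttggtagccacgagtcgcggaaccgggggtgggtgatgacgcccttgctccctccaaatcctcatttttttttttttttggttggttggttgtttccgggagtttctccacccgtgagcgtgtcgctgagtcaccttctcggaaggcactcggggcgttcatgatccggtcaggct
The table of promoters held windows for 9 of the 10 genes, 17 windows in all, each of 300 bases with 250 before and 50 after the start. TGGGAA was searched on both strands and lay in 2 of the 17 windows, 1 of Degs1 and 1 of Sphk1, against 25.6% of all 32851 windows. Windows of 1 gene can overlap, as some of Sphk1 do, and counted by gene the motif lay in 2 of the 9 genes. GTGGGAA, which contains the shorter motif, lay in the Sphk1 window shown, against 6.38% of all windows. Neither motif occurs in the 300-base windows of Degs2 and Sptssb, which says only that these letters are not in them. GC content was 67.7% in the Degs2 window and 52.7% in the Sptssb window, against a median of 52.7% over all windows.

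All 4 arrays lay on 1 slide and were scanned together, with the DAPT arrays at positions 1 and 2 and the vehicle arrays at positions 3 and 4, so slide position and treatment cannot be told apart. Median red signal was 1.82 to 2.85 times the local background, and ratios correlated at 0.944 between the DAPT arrays, 0.922 between the vehicle arrays and 0.838 to 0.879 between groups. Whether a group's arrays represent distinct cultures or mice is not stated, so p-values and errors speak for no more than these samples. Their spread may be a technical one, and the number of arrays limits the precision. Each SE below is limma's, which weighs a gene's own spread (2 residual degrees of freedom) with that of all genes (10.2 prior). It can thus be smaller or larger than the arrays of that gene alone would give. The SD was 0.62 with DAPT and 0.22 with vehicle for Degs2, and 0.08 and 0.61 for Sptssb. The keratin genes Krt5 and Krt14, which define basal cells, were far above the reference in both groups, at 4.92 ± 0.35 and 4.24 ± 0.10 with DAPT and 4.65 ± 0.03 and 4.202 ± 0.46 with vehicle (SD, n = 2), and Trp63 stood at 2.85 ± 0.87 with DAPT and 2.05 ± 0.14 with vehicle (SD, n = 2). The 8 basal markers had a mean ratio of 3.50 and 3.40 with DAPT and 3.18 and 3.15 with vehicle, and 0 passed limma's threshold. Among them Itga6 differed by -0.28 and Dst by -0.26, while the others differed by values above 0. Dst was below the reference in both groups. Most fibroblast and smooth muscle markers were lower with DAPT, 8 of 12 past the threshold of limma's test, against 3.91% of all genes. Their mean ratio was -1.41 and -1.21 on the DAPT arrays and -0.28 and 0.06 on the vehicle arrays. Acta2 at -0.04 and Lum at 0.16 had overlapping groups. Luminal markers had a mean ratio of 2.33 and 2.26 with DAPT and 2.91 and 2.84 with vehicle. Of the 6 measured, 2 were past the threshold and lower, against 3.91% of all genes. The 3 endothelial markers bright enough to test, which leave out Cdh5, Kdr and Tek, averaged -0.73 and -0.70 with DAPT and -0.75 and -0.54 with vehicle, and the 5 immune markers -1.01 and -0.99 with DAPT and -1.06 and -0.67 with vehicle. In bulk RNA, fewer cells of a type and less RNA per cell cannot be told apart.

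Among the serine palmitoyltransferase genes, Sptssb, the small activating subunit, was the exception. Its log2 ratio was 0.02 and -0.10 on the DAPT arrays and 4.35 and 3.48 on the vehicle arrays. Both vehicle arrays were thus far above the reference, both DAPT arrays had a ratio near 0, and the groups lay far apart. The difference was -3.96 ± 0.26 (log2, DAPT over vehicle, SE, n = 2 per group), or 15.5-fold lower with DAPT. The red signal before normalization was 86 and 79 on the DAPT arrays, over local backgrounds of 59 and 62, and 785 and 393 on the vehicle arrays, over 59 and 60.5. The scanner software did not call the probe well above background in red on either DAPT array, so the DAPT level is only an upper bound, and on the normalized red signal Sptssb was at least 11.6-fold lower with DAPT. That bound sets the vehicle mean against the higher of the probe's own DAPT signal and the dimmest signal called well above background on the same array, both after loess and Aquantile normalization, and is open to dye bias. The green signal of the same probe, which comes from the same reference RNA throughout, was 0.42 higher (normalized, log2) on the DAPT arrays, while the difference in red signal was -3.54.

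The large subunits did not share this difference. Sptlc1, which every form of the enzyme needs, stood at 2.29 and 2.21 with DAPT and 1.95 and 1.91 with vehicle, a difference of 0.32 ± 0.19 (SE). Both DAPT arrays lay slightly above both vehicle arrays. The brightest of the 3 probes for Sptlc2, the catalytic partner, stood at 1.83 and 1.63 with DAPT and 1.42 and 1.54 with vehicle, a difference of 0.25 ± 0.20 (SE). Its other probes differed by 0.14 and -0.12, with overlapping groups, so the 3 probes gave no common direction.

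Cers2, whose enzyme makes ceramides with very long fatty acids, stood at 0.90 and 0.99 with DAPT and 0.66 and 0.50 with vehicle. The difference of 0.37 ± 0.19 (SE) was small, though the groups did not overlap. Normalized red signal was higher with DAPT by 0.80, and the green signal of the reference was also higher, by 0.43 (log2).

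Of the desaturase genes Degs1 and Degs2, only Degs2 had groups clearly apart. Degs2, whose enzyme makes phytoceramide, had a log2 ratio of 3.47 and 2.59 on the DAPT arrays and 1.05 and 0.74 on the vehicle arrays. Both DAPT arrays were clearly above both vehicle arrays, and DAPT 1 was higher than DAPT 2 by more than the vehicle arrays differed from each other. The difference was 2.13 ± 0.27 (SE), or 4.39-fold higher with DAPT, which ranked Degs2 at number 17 by increase among all 21464 genes. Its red signal before normalization was 511 and 277 with DAPT, over local backgrounds of 61 and 64, and 121 and 108.5 with vehicle, over 67.5 and 62, and it was called well above background in red on all 4 arrays. The reference signal of this probe was dim and was called well above background on DAPT 1 and vehicle 2 only. Normalized red signal differed by 1.65 and green by -0.48 (log2), so part of the ratio's difference lay in the reference channel.

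**Figure D1:**
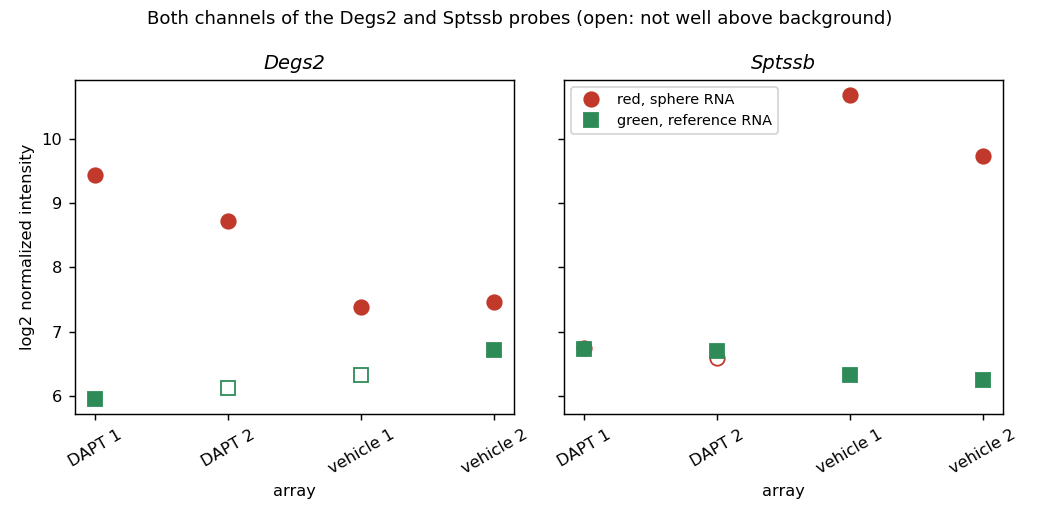
Normalized log2 intensity of the Degs2 probe and the Sptssb probe on each array, red circles for sphere RNA and green squares for reference RNA, open where the scanner software did not call the signal well above background. The red signal of Degs2 is highest on the DAPT arrays, and that of Sptssb meets the reference signal on the DAPT arrays and stands far above it on the vehicle arrays.

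Degs1, the widely expressed desaturase that completes ordinary ceramide, stood at 0.81 and 1.16 with DAPT and 1.05 and 1.45 with vehicle. Its difference was -0.27 ± 0.22 (SE) and the groups overlapped. Neither the Degs2 spot nor the Sptssb spot was marked by the scanner software as non-uniform or as an outlier on any array, whereas 11 and 9 of the 15 member probes were marked on the DAPT arrays and 1 and 6 on the vehicle arrays. Over the whole array 49.6% and 50.9% of probe spots were marked on the DAPT arrays and 11.5% and 29.2% on the vehicle arrays. Marked spots were kept, and their part in the results was not tested beyond leaving them out.

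By the distance between ratio profiles over the 4 arrays, each centred on its own mean, the named genes most like Degs2 included Klra7 at 0.50, Prl2c3 at 0.56, the transporter gene Slc4a11 at 0.62 and Mal2 at 0.63. Their differences between DAPT and vehicle were 2.31, 2.27, 1.56 and 1.76 on the log2 scale. Klra7 and Prl2c3 belong to families of closely similar genes, so their probes may also read relatives. The distances rest on 4 arrays.

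The genes that use ceramide differed little. Ugcg, which makes glucosylceramide, stood at 0.57 and 0.56 with DAPT and 0.62 and 0.78 with vehicle on its brighter probe, a difference of -0.13 ± 0.19 (SE), and its second probe differed by -0.16. Both probes of Ugcg thus lay close to no change. Sgms1, a sphingomyelin synthase gene of the Golgi, stood at -1.56 and -1.43 with DAPT and -1.99 and -1.78 with vehicle on its brighter probe, a difference of 0.39 ± 0.20 (SE). Its second probe gave the opposite sign at -0.32, so no direction can be given for Sgms1. Asah1 stood at 1.43 and 1.98 with DAPT and 1.43 and 1.98 with vehicle, which left a difference of 0.00 ± 0.25 (SE). The arrays within each group were further apart for Asah1 than the groups were.

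Sphk1, the kinase that makes sphingosine 1-phosphate, stood at 0.97 and 1.08 with DAPT and 2.03 and 0.85 with vehicle on its brighter probe. The vehicle arrays spanned the DAPT arrays, and the difference was -0.41 ± 0.31 (SE). It was 0.18 without vehicle replicate 1 and -0.998 without vehicle replicate 2, so its sign rests on 1 array. On the dimmer probe both DAPT arrays, at 1.27 and 0.95, lay below the vehicle arrays, at 1.87 and 1.52, with a difference of -0.58.

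**Figure D2:**
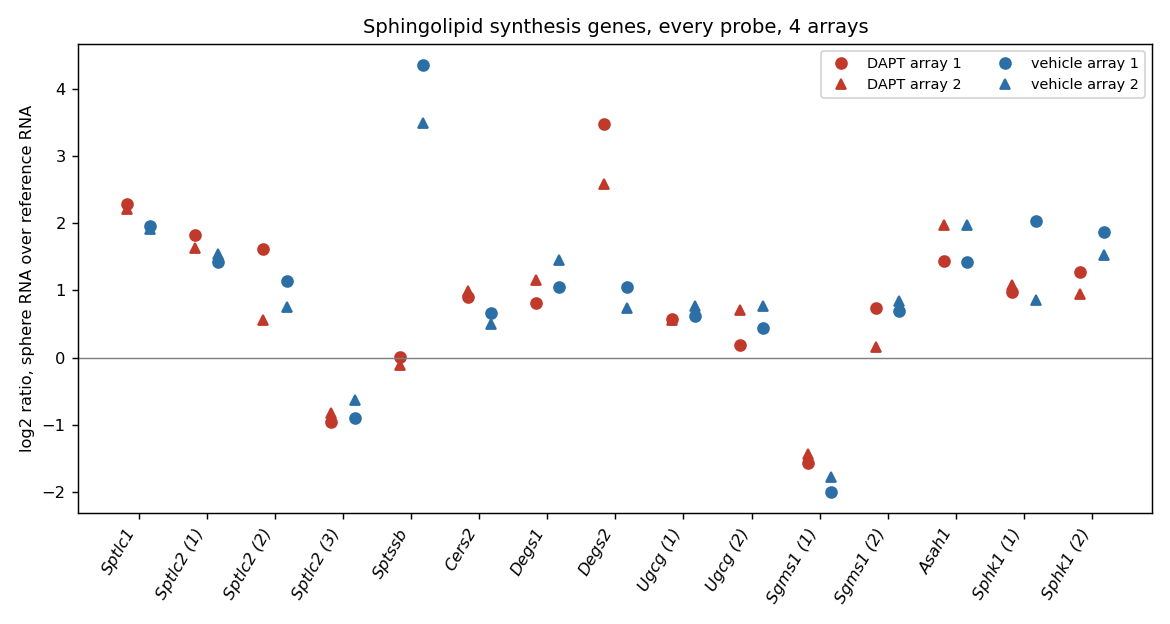
Log2 ratio of sphere RNA over reference RNA for all 15 probes of the 10 genes on the 4 arrays, DAPT in red left of vehicle in blue, circles for replicate 1 and triangles for replicate 2, with probe (1) the brightest of its gene. Sptssb and Degs2 are the genes whose groups stand furthest apart, and the vehicle arrays of Sphk1 (1) lie at 2.03 and 0.85.

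Over the 10 genes the median change was 0.13, against -0.06 over all genes tested. In the limma fit across all genes, at a Benjamini-Hochberg adjusted p of 0.05, Degs2 was past the threshold upward and Sptssb downward, which is 2 of the 10 (20%) against 6.81% of the 21464 genes in either direction. Both DAPT arrays lay above both vehicle arrays in 5 of the 10 genes and below in 2, where 53.9% of all genes had groups apart, 22.2% with DAPT above and 31.7% with DAPT below. Since the genes were chosen with this contrast known, and Sptssb passed the filter on dim probes only through the vehicle arrays, nothing is read from these counts. Under the 16 other ways of processing the data, where each could be measured, Degs2 stayed above 0 (1.11 to 2.57) and Sptssb below 0 (-6.22 to -3.31). Degs2 stood at 1.11 when 13 spots with debris on DAPT 2 were kept in the background fit, at 1.74 with the processed intensities and at 1.65 in the sample channel alone. Of the other 8 genes, Cers2 alone kept its sign in all of the alternatives in which it could be fitted, from 0.07 to 0.80.

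**Figure D3:**
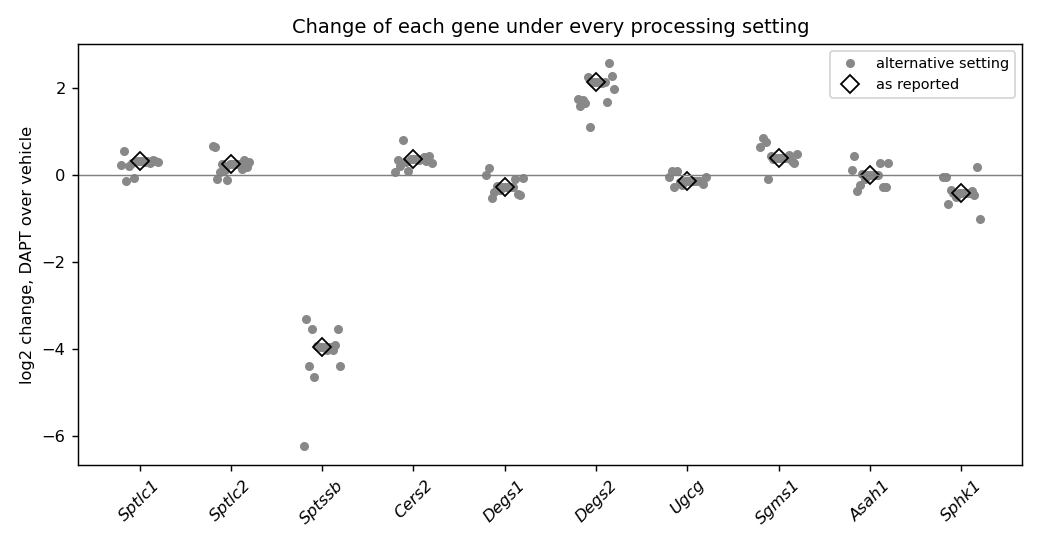
Log2 change, DAPT over vehicle, of each of the 10 genes as reported (open diamonds) and under each alternative setting (grey points). Degs2 lies between 1.11 and 2.57 and Sptssb between -6.22 and -3.31, while most of the other genes have settings on both sides of 0.

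To place these genes in their pathway, 91 other genes of sphingolipid metabolism were listed by role, of which 80 had a named probe and 73 were bright enough to test. With limma's test, 3 of the 73 rose with DAPT (4.11%, against 2.89% of all genes) and 9 fell (12.3%, against 3.91% of all genes), with adjusted p-values over all 21464 genes. The list was made with earlier results of these data known, so no excess is read from these shares or from those by role below. Errors after ± are SE from the limma fit (n = 2 per group). The split of 3 rising and 9 falling became 3 and 4 with median centring of the arrays, 3 and 1 with the scanner's processed intensities, and 0 and 0 in the sample channel alone (8 and 3 at an unadjusted p of 0.05) or with debris spots kept (2 and 18 unadjusted). The median change of the 73 was -0.15, against -0.06 for all genes. It was 0.05 against 0.09 for all genes with the processed intensities, and 0.02 against 0.11 with median centring. Elovl4, one of the 3 that rose, was well above background with DAPT only. It passed the filter only through the group where it was high, so its call is not read as a test. For 5 of the 9 that fell, Fa2h, B4galt5, Hexa, Plpp3 and Slc27a4, the larger part of the change in ratio lay in the reference channel. The fall of fibroblast markers given above moved with these falls, and its part in them was not tested.

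Neither sphingoid base synthesis nor the ceramide synthases had a gene past the threshold of limma's adjusted p. The 95% interval lay above 0 for Ormdl2, Cers6 and Zdhhc9. Zdhhc9 was not well above background on either vehicle array and passed the filter only through the DAPT arrays. Its interval is therefore not read as a test. Of 6 measured genes of sphingoid base synthesis, 5 had values above 0, and the largest was that of Ormdl1, which encodes a brake on serine palmitoyltransferase, at 0.60 ± 0.29 (95% interval -0.04 to 1.24, adjusted p = 0.245). On vehicle 2 Ormdl1 was not well above background, so it passed the filter only through the DAPT arrays, where it was high. Its interval and adjusted p are therefore not read as a test. Without vehicle replicate 1, which leaves vehicle 2 alone, its change was 1.15. Where 1 array of a group is left out, here and below, the lone array is assumed to vary like the arrays of the other group. Sptssa, the other small subunit, stood at 0.09 ± 0.22 and Sptlc3 at 0.18 ± 0.26, and neither passed. Of 3 measured ceramide synthases, Cers6 stood at 0.62 ± 0.21 (95% interval 0.16 to 1.08, adjusted p = 0.0977), and without vehicle replicate 1 it was at 0.83 and past the threshold. Cers1 and Cers3 had no named probe and were not analysed here.

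Of 7 measured genes that hydroxylate, desaturate, phosphorylate or carry ceramide, 1 rose and 1 fell, together 28.6% against 6.81% of all genes. Fads3, a desaturase of the sphingoid base, had ratios of 1.64 and 1.72 with DAPT and 0.56 and 0.95 with vehicle. It rose by 0.92 ± 0.21 (adjusted p = 0.0209), and its second probe, not well above background on either vehicle array, was at least 3.32-fold higher with DAPT. Fa2h, which hydroxylates the fatty acid of ceramide, had ratios of -1.91 and -2.01 with DAPT and -0.83 and -0.38 with vehicle. Its ratio fell by 1.36 (SE 0.21, adjusted p = 0.00315), but red signal differed by -0.29 and green by 1.06, so most of that fall lay in the reference channel. Fads3 was not past the threshold without DAPT replicate 2 (0.88, adjusted p = 0.0528) or vehicle replicate 1 (0.72, adjusted p = 0.069).

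Of 8 measured genes of sphingomyelin synthesis and cleavage, Smpd3, a neutral sphingomyelinase gene, was the one that passed (12.5%, against 6.81% of all genes). Its ratios were -2.55 and -3.15 with DAPT and -1.32 and -1.01 with vehicle, and it fell by 1.68 (SE 0.24, adjusted p = 0.00153). Red signal accounted for -1.32 of this. A second Smpd3 probe differed by -0.17 and did not pass, so the probes disagree on the size of the fall.

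In glycosphingolipid synthesis 2 of 8 measured genes fell (25%, against 3.91% of all genes), B4galt5 and B4galt6, which encode the galactosyltransferases that make lactosylceramide from the product of Ugcg. B4galt6 had ratios of -0.53 and -0.85 with DAPT and 0.06 and 0.17 with vehicle, and it fell by 0.81 (SE 0.20, adjusted p = 0.034), with red signal lower by an amount that matched the ratio (-0.81). B4galt5 had ratios of -0.05 and -0.40 with DAPT and 0.72 and 0.89 with vehicle. Its ratio fell by 1.03 (SE 0.21, adjusted p = 0.0123), while red signal differed by -0.09 and green by 0.94. Both calls were lost without DAPT replicate 2 (adjusted p = 0.0587 for B4galt5 and 0.192 for B4galt6), and the call of B4galt6 was also lost without vehicle replicate 2 (adjusted p = 0.0798).

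Of 12 measured genes of lysosomal and other glycosphingolipid breakdown, 11 had values below 0, where 56.4% of all genes did, with a median of -0.46 against -0.06. Hexa, a β-hexosaminidase subunit gene, was the one that passed (8.33%, against 6.81% of all genes). Its ratios were -1.13 and -1.03 with DAPT and -0.15 and -0.14 with vehicle, a fall of 0.93 (SE 0.19, adjusted p = 0.0135). For Hexa red differed by -0.05 and green by 0.88, so nearly all of the fall in ratio lay in the reference channel. The saposin precursor gene Psap stood at -0.74 and the galactosylceramidase gene Galc at -0.70, and neither passed (adjusted p = 0.0676 and 0.0642). Of the 4 ceramidase genes besides Asah1 none passed limma's adjusted threshold, and all of their 95% intervals included 0. The largest change was that of Acer2 at -0.33 ± 0.22 (95% interval -0.82 to 0.15, adjusted p = 0.407).

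Of 10 measured enzymes and transporters of sphingosine 1-phosphate 2 fell (20%, against 3.91% of all genes). Plpp3, a lipid phosphatase gene, had ratios of -1.68 and -1.86 with DAPT and -0.53 and -0.78 with vehicle, and fell by 1.12 (SE 0.20, adjusted p = 0.00719), with -0.53 in red and 0.59 in green. Cib1, which encodes a protein that carries the kinase of Sphk1 to membranes, had ratios of 1.67 and 1.62 with DAPT and 2.71 and 2.20 with vehicle, and fell by 0.81 (SE 0.22, adjusted p = 0.045). Its call was lost without DAPT replicate 1 (adjusted p = 0.0627), DAPT replicate 2 (adjusted p = 0.1) or vehicle replicate 1 (adjusted p = 0.168), and a second probe stood at 0.08. Of the sphingosine 1-phosphate receptors 2 of 5 could be tested. S1pr3 had ratios of -0.69 and -0.20 with DAPT and 0.36 and 0.43 with vehicle and fell by 0.84 (SE 0.22, adjusted p = 0.0373). A second S1pr3 probe stood at -0.18 without passing, and the call was lost without DAPT replicate 1 (adjusted p = 0.205) or vehicle replicate 2 (adjusted p = 0.0714).

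Among 13 measured genes of very long chain and barrier ceramides, 2 rose and 1 fell, together 23.1% against 6.81% of all genes. Elovl6, a fatty acid elongase gene, had ratios of 1.64 and 1.71 with DAPT and 0.37 and 0.82 with vehicle, and rose by 1.08 ± 0.21 (adjusted p = 0.0113). Elovl4, the elongase gene for the ultra-long acids of barrier ceramides, had ratios of 1.31 and 0.89 with DAPT and 0.09 and 0.22 with vehicle, and rose by 0.94 ± 0.21 (adjusted p = 0.0199). Elovl4 was not well above background on either vehicle array and passed the filter only through the DAPT arrays, where it was high. Its p-value and call are therefore not read as a test. On the normalized red signal Elovl4 was at least 1.77-fold higher with DAPT. Its call was lost without DAPT replicate 1 (0.73, adjusted p = 0.0992) and with median centring (0.35, adjusted p = 0.287). Slc27a4, a fatty acid transport gene, had ratios of -0.27 and -0.81 with DAPT and 1.25 and 0.33 with vehicle, and fell by 1.33 (SE 0.29, adjusted p = 0.0176), with -0.45 in red and 0.88 in green. Its second probe stood at -0.75 without passing.

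**Figure D4:**
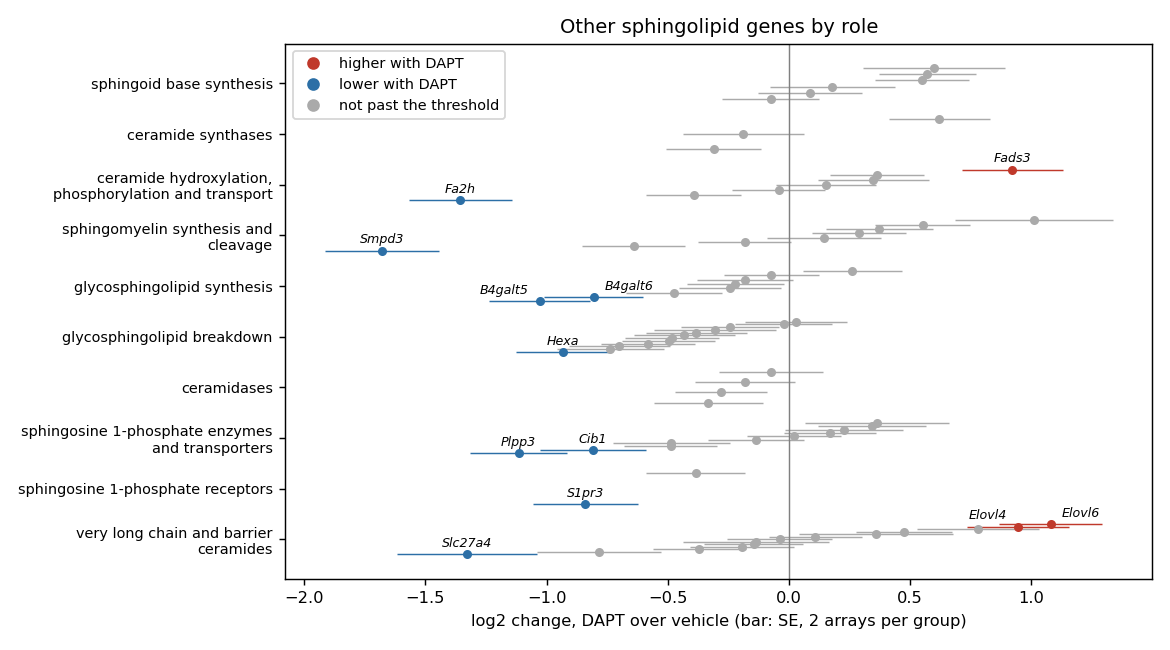
Log2 change, DAPT over vehicle, with SE, of the 73 other sphingolipid genes that could be tested, grouped by role, red for genes that rose, blue for genes that fell and grey for genes not past the threshold. The called changes run from -1.68 for Smpd3 to 1.08 for Elovl6, all smaller than those of Degs2 and Sptssb.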

How the data were processed

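RNA of 2 DAPT and 2 vehicle sphere samples was measured on 4 two-colour arrays, from 2.5 µg of total RNA each, per the labels. The scanner files, written by Agilent Feature Extraction 10.7.3.1 per the file headers, hold the deposited intensity of spot and local background as median pixel brightness, not normalized, and processed intensity values, from which that software had taken background and dye differences. Their deposited log10 ratio, red over green, was used only to check the authors' value table, which holds log2 values whose making no source used here describes, with column medians of -0.015, -0.011, 0.00072 and -0.011. It correlated at 0.869 to 0.902 with the scanner ratios and at 0.9996 to 0.9998 with those computed here, so its direction is sphere over reference. Groups and replicate numbers came from the titles.

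Background was corrected with normexp (offset 50) and loess fitted within arrays, control spots at weight 0, after leaving out 13 spots on DAPT 2 where local background exceeded 5 times the median. RefSeq accessions (GRCm38.p6) named 24375 of 41174 probes. Kept probes were well above background (red) on each array of at least 1 group, and the brightest in red stood for its gene. Of the 21464 genes so tested, 13987 were named. Groups were compared with limma 3.58.1 in R 4.3.3 (two-sided, Benjamini-Hochberg over all 21464 genes, 2 residual and 10.2 prior degrees of freedom). On simulated data with 50 genes changed at each size, 40% of changes of 1 and 100% of changes of 2 to 4 (log2) were recovered, with 3 false calls. The simulated errors were independent, with no debris, dye, background or array-wide effect. These shares therefore do not give the recovery on the real arrays.

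Members and lists were chosen with earlier results of these data known. All members were named, with every pathway gene past the threshold and the largest change in a role without one. Other genes and probes were named after their values were seen. Of the 5 genes nearest to Degs2 in profile, 1 is not reported here.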

Additional observations from a re-analysis of the deposited data

How the results depend on the processing

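The counts given for the listed genes were 3 rising and 9 falling, and for the 10 synthesis genes 1 higher (Degs2) and 1 lower (Sptssb). The 10 genes were chosen with this contrast known, and Sptssb passed the filter only through the vehicle arrays. Their counts below describe the settings and are not read as a test. Counts over all genes under most of these settings are given further below. With limma on the sample channel alone, listed genes past the threshold numbered 0 rising and 0 falling (8 and 3 at an unadjusted p of 0.05), and synthesis genes 0 higher and 0 lower (2 and 1 unadjusted), with Degs2 at 1.65 and Sptssb at -3.54. With the debris spots kept, limma called 0 listed genes rising and 0 falling (2 and 18 unadjusted) and 0 synthesis genes higher (0 unadjusted), with Sptssb still lower. With the processed intensities 1 listed gene fell, 3 rose, and 0 synthesis genes were higher with limma (3 unadjusted), with Degs2 at 1.74. Median centring, which moved the median of all genes from -0.06 to 0.11, gave 3 rising (Elovl6, Elovl7 and Fads3, without Elovl4) and 4 falling listed genes and 2 synthesis genes higher, Degs2 and Sgms1. Scale normalization left 2 rising and 11 falling, and the same 2 synthesis genes higher. Without marked spots 16 listed genes could be tested, of which limma called 2 rising and 0 falling (3 unadjusted). The filter on all 4 arrays removes Sptssb, so 0 synthesis genes were lower with limma (0 unadjusted). Leaving out each array in turn gave 2 to 5 listed genes rising and 7 to 8 falling, and 1 to 2 synthesis genes lower, the second being Sphk1 without vehicle replicate 2. The authors' value table gave 3 rising and 8 falling, and an offset of 16 gave 3 and 7.

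Over all genes the 621 higher and 840 lower became 1274 and 533 with median centring, 385 and 998 after scale normalization, 291 and 338 from processed intensities, 3 and 70 with debris kept, 175 and 73 without marked spots, 0 and 1 on the sample channel alone, and 427 to 813 higher and 611 to 1016 lower on leaving out each array. The replicate numbers do not pair the samples by any label, and deviations of same-numbered arrays correlated at 0.085. With the replicate number as a block 5 listed genes rose and 11 fell. A block for slide or scan was not run, since all arrays share 1 slide. The causes were not tested. Signals near background limit Sptssb with DAPT, Elovl4, Zdhhc9 and the second Fads3 probe with vehicle, Ormdl1 on vehicle 2 and the Degs2 reference signal.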
